A study of Mus musculus with 18 samples.

Results

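The nuclear-encoded subunits of the mitochondrial respiratory chain were described in cultured mouse hepatocytes given an siRNA, its reversing oligonucleotide or both. Members were the gene symbols of the authors' deposited tables that begin with Nduf, Sdha to Sdhd, Uqcr, Cox4 to Cox8 or Atp5, together with Cyc1, Cycs and Atpif1, and pseudogene names ending in -ps were left out. The rule used names only and gave 95 of the 37991 genes in the count files. Of these, 43 were placed under complex I, 8 under complex II, 9 under complex III, 16 under complex IV, 18 under complex V, and Cycs was cytochrome c. The 18 under complex V include the inhibitor Atpif1, and Atp5s and Atp5sl, which are named for the synthase but were not classed as subunits. The prefixes also took in 11 assembly factors, which help build a complex without staying in it: 7 of complex I (Ndufaf genes) and 4 of complex II (Sdhaf genes).

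The cells were commercial hepatocytes of CD-1 male mice, cryopreserved and plateable, and total RNA was sequenced in 6 groups of 3 libraries. The groups received PBS, an siRNA against Ttr, a scrambled REVERSIR (R-61), a TTR REVERSIR (R-35) directed at that siRNA, the siRNA with the scrambled REVERSIR, or the siRNA with the TTR REVERSIR. A REVERSIR is a short synthetic oligonucleotide made to bind the guide strand of an siRNA and stop its activity, and the scrambled one serves as its control. The labels give no dose, time or animal age, and they do not say whether replicates were separate cultures or animals, so p-values measure only the spread between these libraries, which may be technical.

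The respiratory chain passes electrons from NADH (complex I) and succinate (complex II) through ubiquinone, complex III and cytochrome c to oxygen at complex IV, and the proton gradient so formed drives the ATP synthase (complex V). Most of its subunits are encoded in the nucleus and imported, whereas a small set of core subunits is encoded by mitochondrial DNA. Hepatocytes are rich in mitochondria, and many of these nuclear genes share promoter motifs for the factors NRF1 and GABP.

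Of the 95 members, 76 had a RefSeq promoter window (build GRCm38.p6, 250 bases before to 50 after the transcription start). The NRF1 core GCGCANGCG, searched on both strands with N as any base, was present in 26 of them (34.2%), against 7.03% of 27025 genes with such windows. The stricter form GCGCATGCG was in 14.5% of members and 1.95% of all genes, and the GABP motif CCGGAAGT in 6.58% and 4.31%. Among the 12 members whose level differed from PBS in a test described further on, 10 had a window and 6 held the core. Shown here, 5′ to 3′ on the gene's strand, is the match with 10 flanking bases on each side for the 4 of these with a match wholly before the start, and for Cycs. Capitals mark the core on either strand. With T as the middle base, matches on both strands can overlap, as for Atp5k, whereas Cycs matched as the reverse complement only.
Sdhd, chr9:50603910-50603938, minus strand: tcgctggggtGCGCACGCGcggtggcagc
Atp5k, chr5:108434431-108434459, minus strand: tttcactgcgGCGCATGCGcctttctggc
Atp5h, chr11:115420042-115420070, minus strand: gaccccgacgGCGCAGGCGccgcgcccgc
Atpif1, chr4:132535537-132535565, minus strand: tgaccgttctGCGCAAGCGcagcctcacg
Cycs, chr6:50566612-50566640, minus strand: catgctagctCGCATGCGCgcgcacaaac
The windows came from genes that were higher than PBS (Sdhd, Atp5k) and lower (Atp5h, Atpif1) after treatment. A match is a description of letters and not evidence of binding.

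Libraries held 1755819 to 10145265 counts, of which the members took 0.541% to 0.881%. Ttr fell to 21.8% ± 1.72 of the PBS mean with siRNA and to 20.4% ± 0.0651 with siRNA and scrambled REVERSIR, and stood at 94.8% ± 10.1 with siRNA and TTR REVERSIR (SD, n = 3). Mitochondrial ribosomal RNA made up 24.3% and 24.1% of counts in PBS replicates 1 and 2, 5.45% in PBS replicate 3 and 1.69% to 9.56% over all libraries but PBS 1 and 2. Those 2 libraries also had scaling factors of 0.747 and 0.758, against 0.986 to 1.07 in the others. The 10 hepatocyte markers summed to 45750 to 60780 CPM (counts scaled to a common library total with TMM factors), Kupffer cell markers to 280.6 to 386.8, endothelial markers to 45.4 to 70.7, stellate cell markers to 29.8 to 44.2, cholangiocyte markers to 9.84 to 16.4 and muscle markers to 21.9 to 37.5. Of the hepatocyte markers, the protease inhibitor gene Serpina1c was called lower than PBS by edgeR in all 5 comparisons, at log2 differences of -0.55 to -0.68 (adjusted p from 0.0215 to 0.0493), and its part in the results that follow was not tested. Emr1, Col1a1, Krt7, Cftr and the muscle genes Actn2 and Tnnt2 were under 1 CPM in every library, and the muscle genes Ckm, Myh7, Mb and Tnni2 were at 0. Only 1 of the 8 muscle markers passed the filter on low counts. In such bulk cultures, fewer cells of a type and less RNA per cell cannot be told apart.

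Per kilobase of exon, the highest levels were those of complex IV and complex V subunits. In complex IV, Cox4i1, a regulatory subunit, stood at 442 ± 49.95 CPM per kb (SD over 18 libraries) and Cox6c lowest of the members past the filter on low counts, at 34.5 ± 2.23. Under complex V, Atp5a1, the α subunit of the catalytic F1 head, stood at 215 ± 11.97. Lowest there was Atp5sl at 3.28 ± 0.436, a gene named for its likeness to a synthase factor and not classed as a subunit. Complex I spanned Ndufb9 at 156 ± 8.50 to Ndufb2 at 1.88 ± 0.519, both accessory subunits. Complex II spanned the membrane anchor Sdhd at 107 ± 12.3 to the assembly factor Sdhaf3 at 2.33 ± 0.426. Complex III was narrower, from the hinge subunit Uqcrh at 110 ± 8.29 to Uqcrq at 40.0 ± 10.4, and Cycs stood at 26.0 ± 3.56. The length used mattered for some genes: Atp5b, the β subunit, was at 206 CPM per kb of all exons and 455 per kb of its longest transcript. The value of Ndufb2 was taken over 5628 bases of annotated exon, and that of Cox6c over 3567. Without scaling by length, Cox6c stood at a mean of 127.1 CPM with siRNA and TTR REVERSIR, where Cox5b stood at 47.4.

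**Figure D1:**
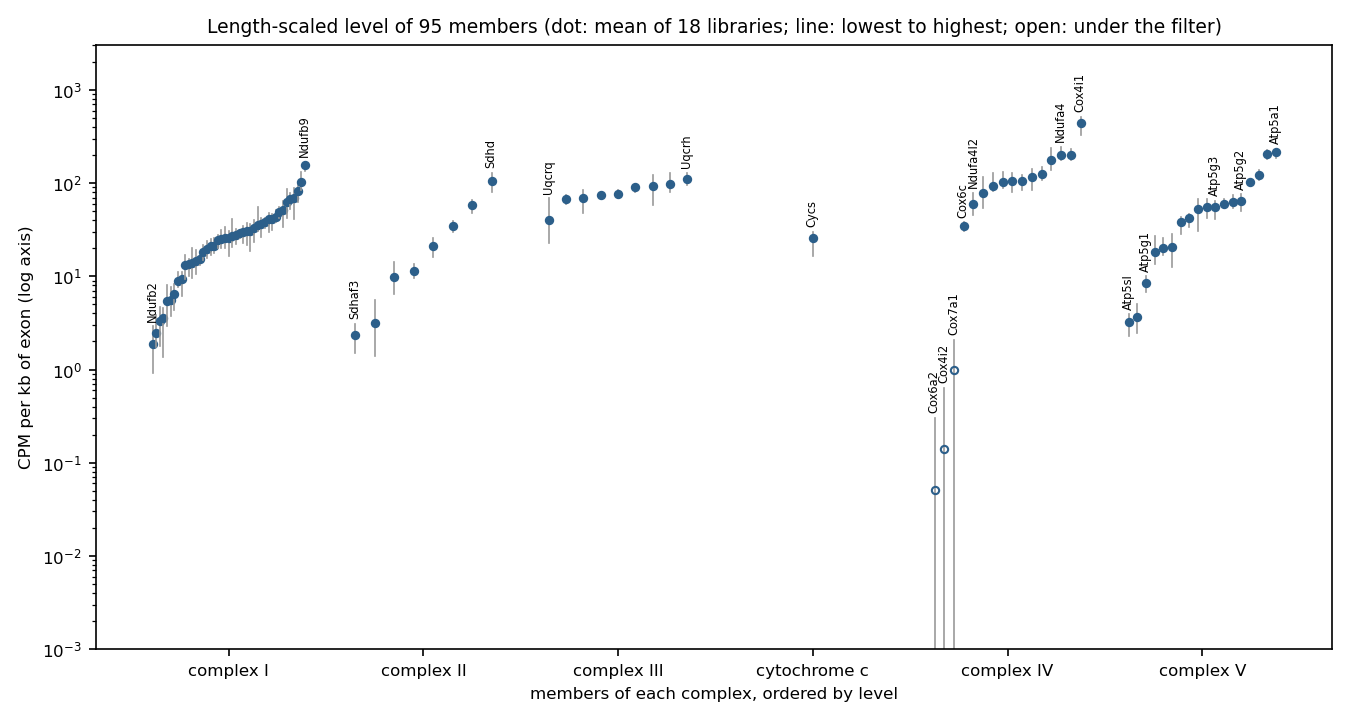
Length-scaled level (CPM per kb of exon, log axis) of 95 members by complex; dots are means of 18 libraries and lines run from the lowest to the highest library, cut at the axis where a library was at 0. The 3 open dots, Cox4i2, Cox6a2 and Cox7a1, lie below every other member of complex IV.

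Where a Cox subunit of complex IV has tissue-specific forms, nearly all counts came from the ubiquitous or liver-type form. Cox4i2, Cox6a2 and Cox7a1, forms known from lung (Cox4i2) or from heart and skeletal muscle, had 10, 5 and 35 counts in 18 libraries together and were the only members to fail the filter. Their partners stood at 442 (Cox4i1), 106 (Cox6a1) and 177 (Cox7a2) CPM per kb, and Cox7a2l, which joins complexes III and IV into supercomplexes, at 103. Cox6b1, Cox7b and Cox8a were at 202, 126 and 106 CPM per kb, whereas Cox6b2, Cox7b2, Cox8b and Cox8c, which are outside the authors' tables and so no members, had 0 counts. Ndufa4, now placed in complex IV, stood at 202 ± 17.8 and its hypoxia-induced relative Ndufa4l2 at 59.5 ± 8.11. Among the genes for the rotor subunit c, which yield the same mature protein, Atp5g2 stood at 64.4 ± 7.11, Atp5g3 at 56.0 ± 6.15 and Atp5g1 at 8.39 ± 0.966, and the ranges of the former 2 overlapped. With the longest transcript as the length, Atp5g3 was at 142 CPM per kb and led Atp5g2 at 64.4, so the order of those 2 rests on the annotation. The value of Atp5g1 was taken over 4908 bases of annotated exon (4715 in its longest transcript), against 647 for Atp5g2. Its low level per kb thus also rests on the annotated length.

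The summed levels of complexes I, III, IV and V did not separate PBS from any treated group. All 95 members together made 7357 ± 109 CPM in PBS and between 7346 ± 189 (scrambled REVERSIR) and 7665 ± 478 (siRNA with TTR REVERSIR) in the treated groups (SD, n = 3). Complex I summed to 1714 ± 16.6 CPM in PBS and to 1669 to 1755 as treated means, complex III to 917 ± 20.3 against 878 to 935, complex IV to 1445 ± 19.1 against 1419 to 1495, and complex V to 2694 ± 37.3 against 2698 to 2807. For these 4 complexes the range of the PBS libraries overlapped that of every treated group. Complex II and cytochrome c stood lower in PBS, through replicates 1 and 2: complex II was 499, 482 and 569 CPM in the PBS libraries against 544 to 621 in the 15 treated libraries, and Cycs 62.3, 56.1 and 96.6 against 83.3 to 102. The third PBS library thus fell inside the treated range for both. Log2 differences of Cycs from PBS ran from 0.29 to 0.47 and none passed by edgeR (lowest adjusted p = 0.0536, siRNA with TTR REVERSIR). DESeq2 called Cycs with scrambled REVERSIR (adjusted p = 0.0260) and with siRNA and TTR REVERSIR (adjusted p = 0.0169).

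**Figure D2:**
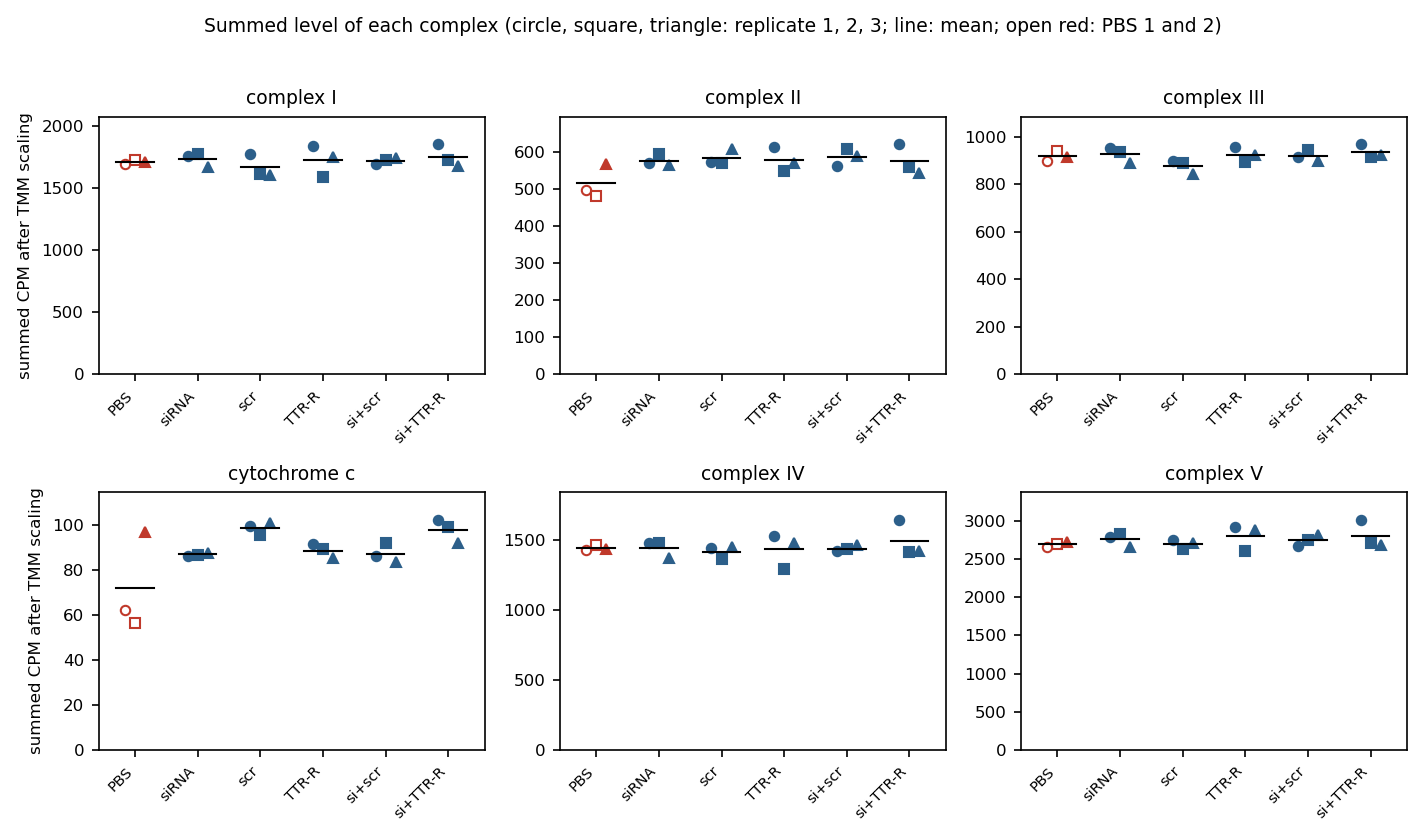
Summed CPM of each complex by group, with 3 libraries a group and their mean as a line (scr, scrambled REVERSIR; TTR-R, TTR REVERSIR; si, siRNA). Sums of complexes I, III, IV and V are level across groups, whereas PBS replicates 1 and 2 (open red) are lowest for complex II and cytochrome c.

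Against PBS, individual subunits rose and others fell in complexes I and V, while in complex II only Sdhd was called, higher, and in complexes III and IV only Uqcrb and Ndufa4l2, both lower (edgeR). With siRNA, 10 of the 92 members that passed the filter were called at an adjusted p under 0.05 (edgeR quasi-likelihood test, adjusted over 11153 genes), 5 higher and 5 lower, where 2.62% of all genes tested were called. With scrambled REVERSIR 2 were called, both lower (0.421% of all genes). With TTR REVERSIR 6 were called, 3 each way (0.699%). With siRNA and scrambled REVERSIR 5 were called, 1 higher and 4 lower (0.61%), and with siRNA and TTR REVERSIR 6, 5 higher and 1 lower (0.789%). The median log2 difference over the 92 members lay between -0.02 and 0.05, and that over all genes tested between -0.01 and 0.00, in these 5 comparisons. All 5 share the same 3 PBS libraries, so they are not independent of each other. In all, 12 members were called by edgeR, 6 higher and 6 lower than PBS, and 80 were called in no comparison.

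**Figure D3:**
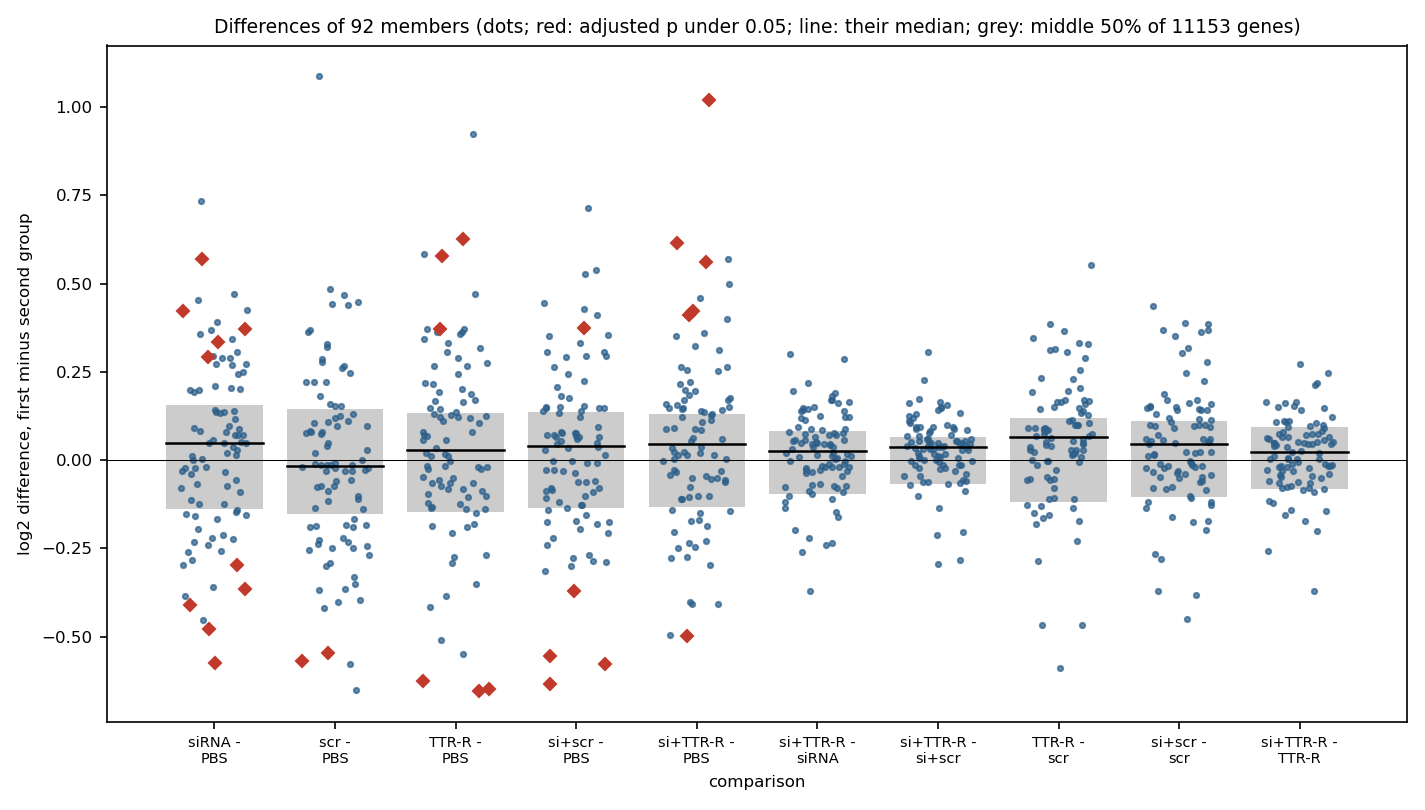
Log2 difference between the groups named on the x axis (first minus second) for the 92 members tested; the line is their median, the grey box the middle 50% of all 11153 genes, and red diamonds members with an adjusted p under 0.05. All 29 red points lie in the 5 comparisons with PBS, on both sides of 0.

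In complex I, Ndufv2, a core iron-sulfur subunit of the NADH-oxidising module (chr17:66428135-66450899 in NCBIM37, as are all gene positions that follow), stood at 107.3, 110.8 and 71.4 CPM in the PBS libraries. It was 61.4, 69.8 and 64.1 with siRNA, 62.1, 61.5 and 74.8 with scrambled REVERSIR, 60.6, 63.7 and 65.2 with TTR REVERSIR, 63.7, 64.6 and 66.8 with siRNA and scrambled REVERSIR, and 70.3, 71.8 and 77.5 with siRNA and TTR REVERSIR. PBS replicates 1 and 2 were above every other library, whereas PBS replicate 3 lay among the treated ones. It fell in 4 comparisons, by 0.58 ± 0.11 log2 (SE) with siRNA (adjusted p = 0.0142, edgeR), 0.57 ± 0.12 with scrambled REVERSIR, where groups overlapped, 0.62 ± 0.11 with TTR REVERSIR and 0.58 ± 0.11 with siRNA and scrambled REVERSIR. With siRNA and TTR REVERSIR its log2 difference was -0.41 ± 0.11 (adjusted p = 0.0607). Ndufv2 was also 1 of 2 members, with Atp5g3, that passed the test for any difference among the 6 groups (adjusted p = 0.0336, edgeR), which 0.224% of all genes passed.

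Ndufa12 (chr10:93661700-93684188), an accessory subunit related in sequence to the assembly factor Ndufaf2, stood at 53.6, 55.2 and 35.3 CPM in PBS and at 27.7 to 40.9 in the 15 treated libraries, median 33.0. It fell by 0.48 ± 0.12 log2 with siRNA (adjusted p = 0.0397), 0.65 ± 0.13 with TTR REVERSIR, 0.55 ± 0.12 with siRNA and scrambled REVERSIR and 0.50 ± 0.12 with siRNA and TTR REVERSIR. Groups overlapped for siRNA and for siRNA with TTR REVERSIR. Its coding sequence has a copy of 99.5% identity at the pseudogene Gm15920, within Rabgef1, so the authors' counting could split its reads. Gm15920 stood at 13.9, 12.8 and 5.29 CPM in PBS and 4.09 to 8.995 elsewhere, with adjusted p = 0.102 for siRNA against PBS.

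The accessory subunit Ndufa9 (chr6:126771881-126799162), which lies by the ubiquinone site, went the other way, at 45.2, 47.8 and 61.0 CPM in PBS against 63.2 to 85.0 in the treated libraries. Here all 3 PBS libraries were below all 15 others. It rose by 0.42 ± 0.11 log2 with siRNA (adjusted p = 0.0480), 0.58 ± 0.12 with TTR REVERSIR and 0.56 ± 0.11 with siRNA and TTR REVERSIR, and the values for the scrambled REVERSIR without and with siRNA were 0.48 ± 0.13 and 0.43 ± 0.11, neither past the threshold. Ndufb2 (chr6:39542573-39553381), of the membrane arm, was the lowest-level of the called members, at 5.16, 5.18 and 8.57 CPM in PBS and 7.73 to 16.4 in the treated libraries. It rose with siRNA and TTR REVERSIR, 2.03-fold (log2 1.02 ± 0.22, adjusted p = 0.0415). Its values in the other 4 comparisons with PBS were 0.71 to 1.09, none past the threshold. Ndufb2 overlaps exons of Adck2 on its own strand and of Braf on the other, and the sources used here do not name the strand of counting.

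In complex II, Sdhd (chr9:50404443-50411954), the small membrane anchor that takes part in ubiquinone binding, stood at 102.9, 105.0 and 127.1 CPM in PBS and at 126.0 to 165.6 in the treated libraries. PBS replicates 1 and 2 were below all others and replicate 3 was inside the treated range. It rose by 0.34 ± 0.09 log2 with siRNA (adjusted p = 0.0452) and 0.41 ± 0.09 with siRNA and TTR REVERSIR (adjusted p = 0.0352). The other core subunits did not pass in any comparison by edgeR or DESeq2, yet in each of them PBS replicates 1 and 2 were the lowest of the 18 libraries. Sdha, the flavoprotein, was 212.6 and 187.4 CPM there against 214.6 to 257.7 in the treated libraries, Sdhb, the iron-sulfur subunit, 66.7 and 69.4 against 70.9 to 88.8, and Sdhc, the other anchor, 52.8 and 55.2 against 56.9 to 83.2.

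In complex III, Uqcrb (chr13:67001553-67006314), which lies by the ubiquinone-binding site, stood at 112.9, 109.3 and 88.5 CPM in PBS and at 70.4 to 92.8 in the treated libraries. It fell by 0.41 ± 0.08 log2 with siRNA (adjusted p = 0.0171) and by 0.37 ± 0.08 with siRNA and scrambled REVERSIR (adjusted p = 0.0368), without overlap in either. Uqcrb has 5 near-identical copies in the genome, of which Gm2962 and Gm16089 held 50 and 66 counts in 18 libraries. Uqcrc2, a large subunit on the matrix side, was among the steadiest members, with an SD of 0.06 in log2 CPM over 18 libraries. In complex IV, Ndufa4l2 (chr10:126951995-126954208) stood at 67.4, 75.7 and 61.3 CPM in PBS, 52.3, 56.9 and 50.2 with siRNA, and 49.6, 46.1 and 43.9 with scrambled REVERSIR. It fell by 0.37 ± 0.09 log2 with siRNA (adjusted p = 0.0285) and by 0.55 ± 0.10 with scrambled REVERSIR (adjusted p = 0.0261), and its other values were -0.18 to -0.30. No other member of complex IV was called by edgeR. For Cox4i1 the edgeR log2 differences were 0.31 to 0.37, with adjusted p from 0.0535 to 0.112, whereas DESeq2 called it in all 5 comparisons with PBS (adjusted p from 0.0165 to 0.0487). DESeq2 also called Cox7c, a small subunit, with TTR REVERSIR (adjusted p = 0.0234) and with siRNA and scrambled REVERSIR (adjusted p = 0.0316), lower in both.

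Complex V held 5 of the 12. Atp5g3 (chr2:73746504-73749383), for rotor subunit c, stood at 90.5, 98.2 and 109.9 CPM in PBS and at 111.0 to 140.6 in the treated libraries, so that no PBS library reached a treated one. It rose by 0.37 ± 0.07 log2 with siRNA (adjusted p = 0.0163), 0.37 ± 0.08 with TTR REVERSIR, 0.37 ± 0.07 with siRNA and scrambled REVERSIR and 0.42 ± 0.07 with siRNA and TTR REVERSIR, with 0.22 ± 0.08 for scrambled REVERSIR alone (adjusted p = 0.208). Its adjusted p for any difference among groups was 0.0489. Atp5k (chr5:108862263-108863467), subunit e, which links synthase dimers, was 19.0, 23.2 and 29.5 CPM in PBS and 29.1 to 42.2 in the treated libraries. It rose by 0.57 ± 0.14 log2 with siRNA (adjusted p = 0.0331), 0.62 ± 0.15 with TTR REVERSIR and 0.61 ± 0.14 with siRNA and TTR REVERSIR. Atp5o (chr16:91684643-91931932), the stalk subunit that confers oligomycin sensitivity, was 76.0, 80.2 and 95.1 CPM in PBS and 104.4, 103.2 and 99.4 with siRNA. It rose there by 0.29 ± 0.08 log2 (adjusted p = 0.0452), and was called in no other comparison. Its exons overlap those of Donson on its own strand, and Atp5k and Atp5o have 3 and 1 near-identical copies.

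The peripheral stalk subunit d, Atp5h (chr11:115277003-115281276), was 107.3, 108.8 and 92.5 CPM in PBS and 87.8, 86.2 and 78.6 with siRNA, where it fell by 0.30 ± 0.08 log2 (adjusted p = 0.0426). Scaled by library totals alone, that log2 difference changed sign, and the median of all genes moved to between 0.29 and 0.33 in the comparisons with PBS. Relative to that median all 29 calls kept their sign. Taking off the median nearly returns the value after TMM scaling (-0.2966 against -0.2975 for Atp5h with siRNA), so this is no separate check. Atpif1 (chr4:132086470-132089574) encodes the inhibitor that stops the synthase from running backwards and hydrolysing ATP. It was 39.3, 38.3 and 26.2 CPM in PBS and 19.6 to 30.1 in the treated libraries, and PBS replicate 3 again lay with the treated ones. Atpif1 fell by 0.65 ± 0.15 log2 with TTR REVERSIR (adjusted p = 0.0414) and by 0.63 ± 0.13 with siRNA and scrambled REVERSIR (adjusted p = 0.0279). Atpif1 overlaps Gm12999 on the other strand, and it and Atp5h have 1 and 8 near-identical copies. Of the 5 subunits of the F1 head none was called in any comparison by edgeR or DESeq2, and at an unadjusted p under 0.05 (edgeR) there were 0 or 1 of them in each. With siRNA their log2 differences ran from -0.04 to 0.19, and Atp5c1, the central γ shaft, had the smallest SD of log2 CPM of all members tested, 0.05 over 18 libraries.

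**Figure D4:**
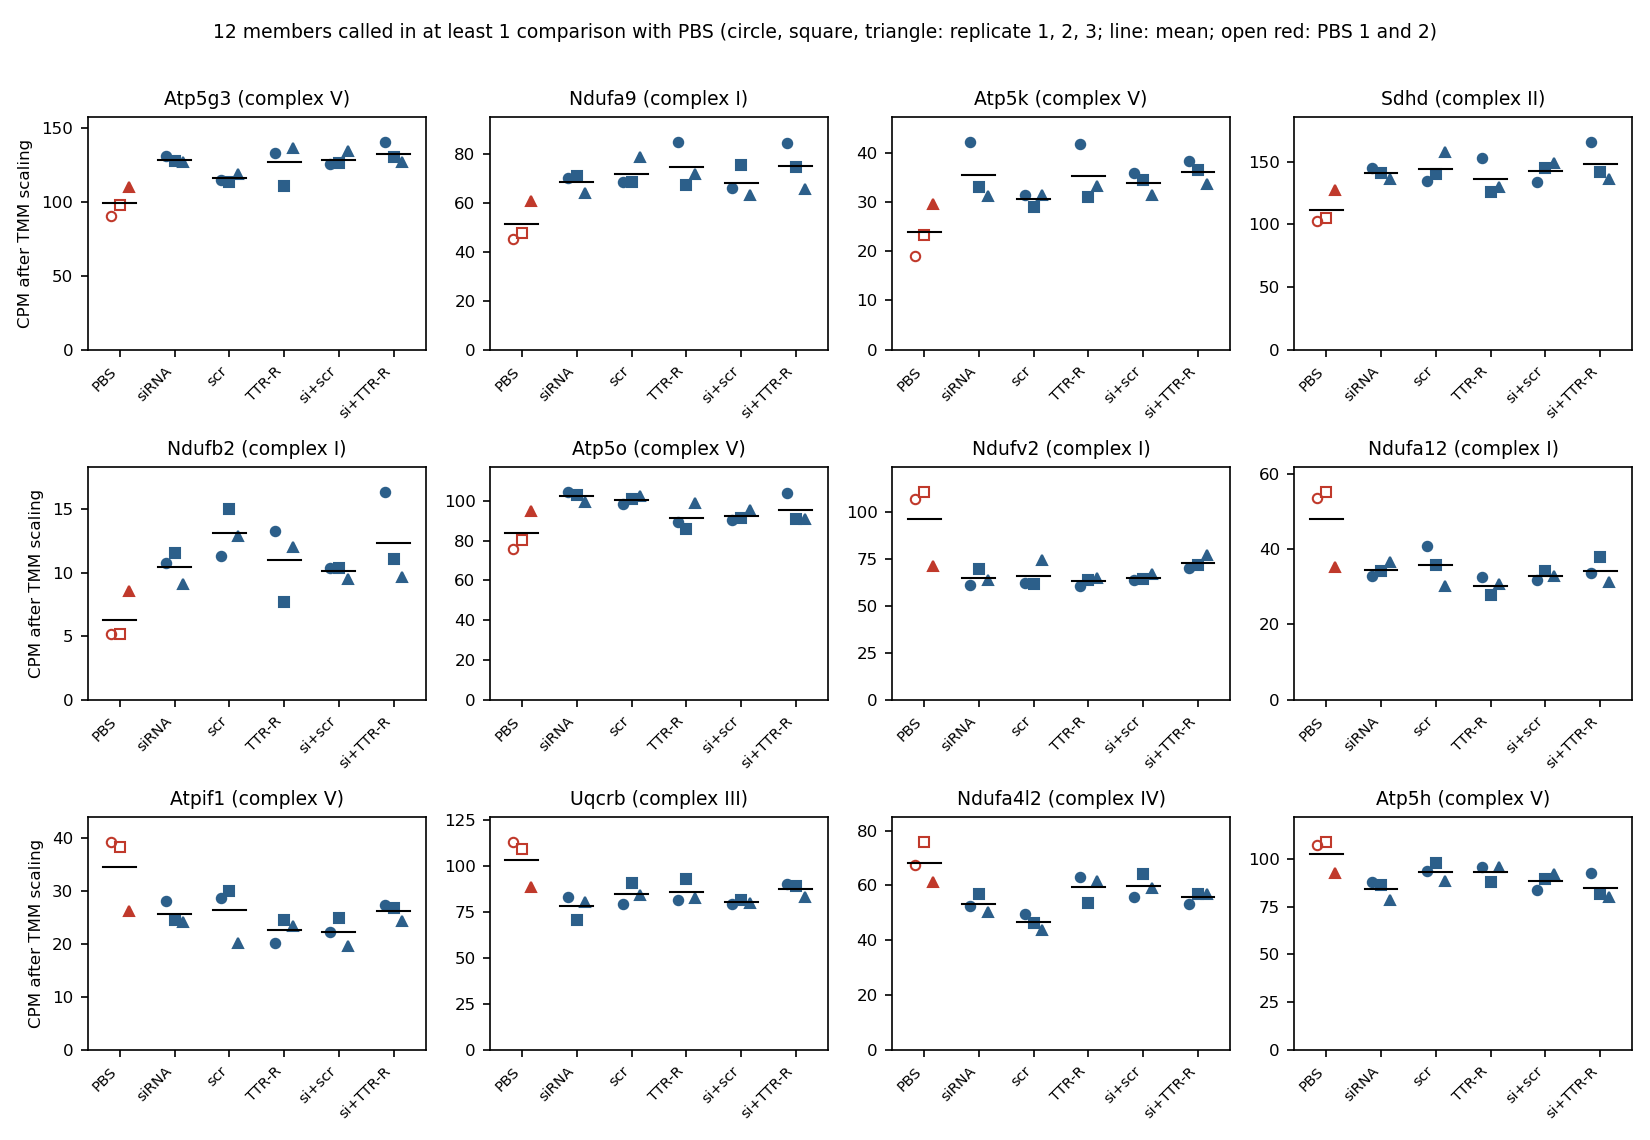
CPM after TMM scaling of the 12 called members by group, 1 point a library (circle, square and triangle for replicates 1, 2 and 3) and a line for the mean; labels as in the plot of summed levels. PBS replicates 1 and 2 (open red) lie beyond the other 16 libraries in all 12 panels, and PBS replicate 3 lies between them and the treated median.

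In many members PBS 1 and 2 differed from the remaining libraries. Both lay outside the range of the other 16 in 33 of 92 members, above it in 12 and below it in 21 (35.9%), against 13.4% of all genes tested. The median size of a member's log2 distance from the median of the 15 treated libraries was 0.20 in PBS 1, 0.19 in PBS 2 and 0.08 in PBS 3, where all genes gave 0.19, 0.18 and 0.11, and between 0.05 and 0.16 in single treated libraries. PBS 3 lay within the treated range for 85 of 92 members (92.4%) and for 88.5% of all genes. With PBS 3 as the only control, the 29 calls of a member in a comparison kept their sign, with a median size of 44.7% (3.51% to 71.0%) of that with 3 controls. The calls were made in fits that included PBS 3, so their sign is no separate test. PBS 3 lay on the side of PBS 1 and 2 in all 12 called members. Over the 92 members it did so in 52 (56.5%), and over all genes in 55.3%. Without PBS 1, edgeR called 0 members in each of the 5 comparisons (15 to 20 at an unadjusted p under 0.05), likewise without PBS 2 (17 to 22), and without PBS 3 it called 21 to 30. Leaving out 1 treated library left 0 to 3 calls, except 14 for TTR REVERSIR without its replicate 2. Shares of all genes in these fits are not given here, so the counts describe the members only. Without PBS 3, PBS 1 and 2 were the only controls. The share of mitochondrial ribosomal RNA moved with these 2 libraries, and its part in the differences was not tested.

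**Figure D5:**
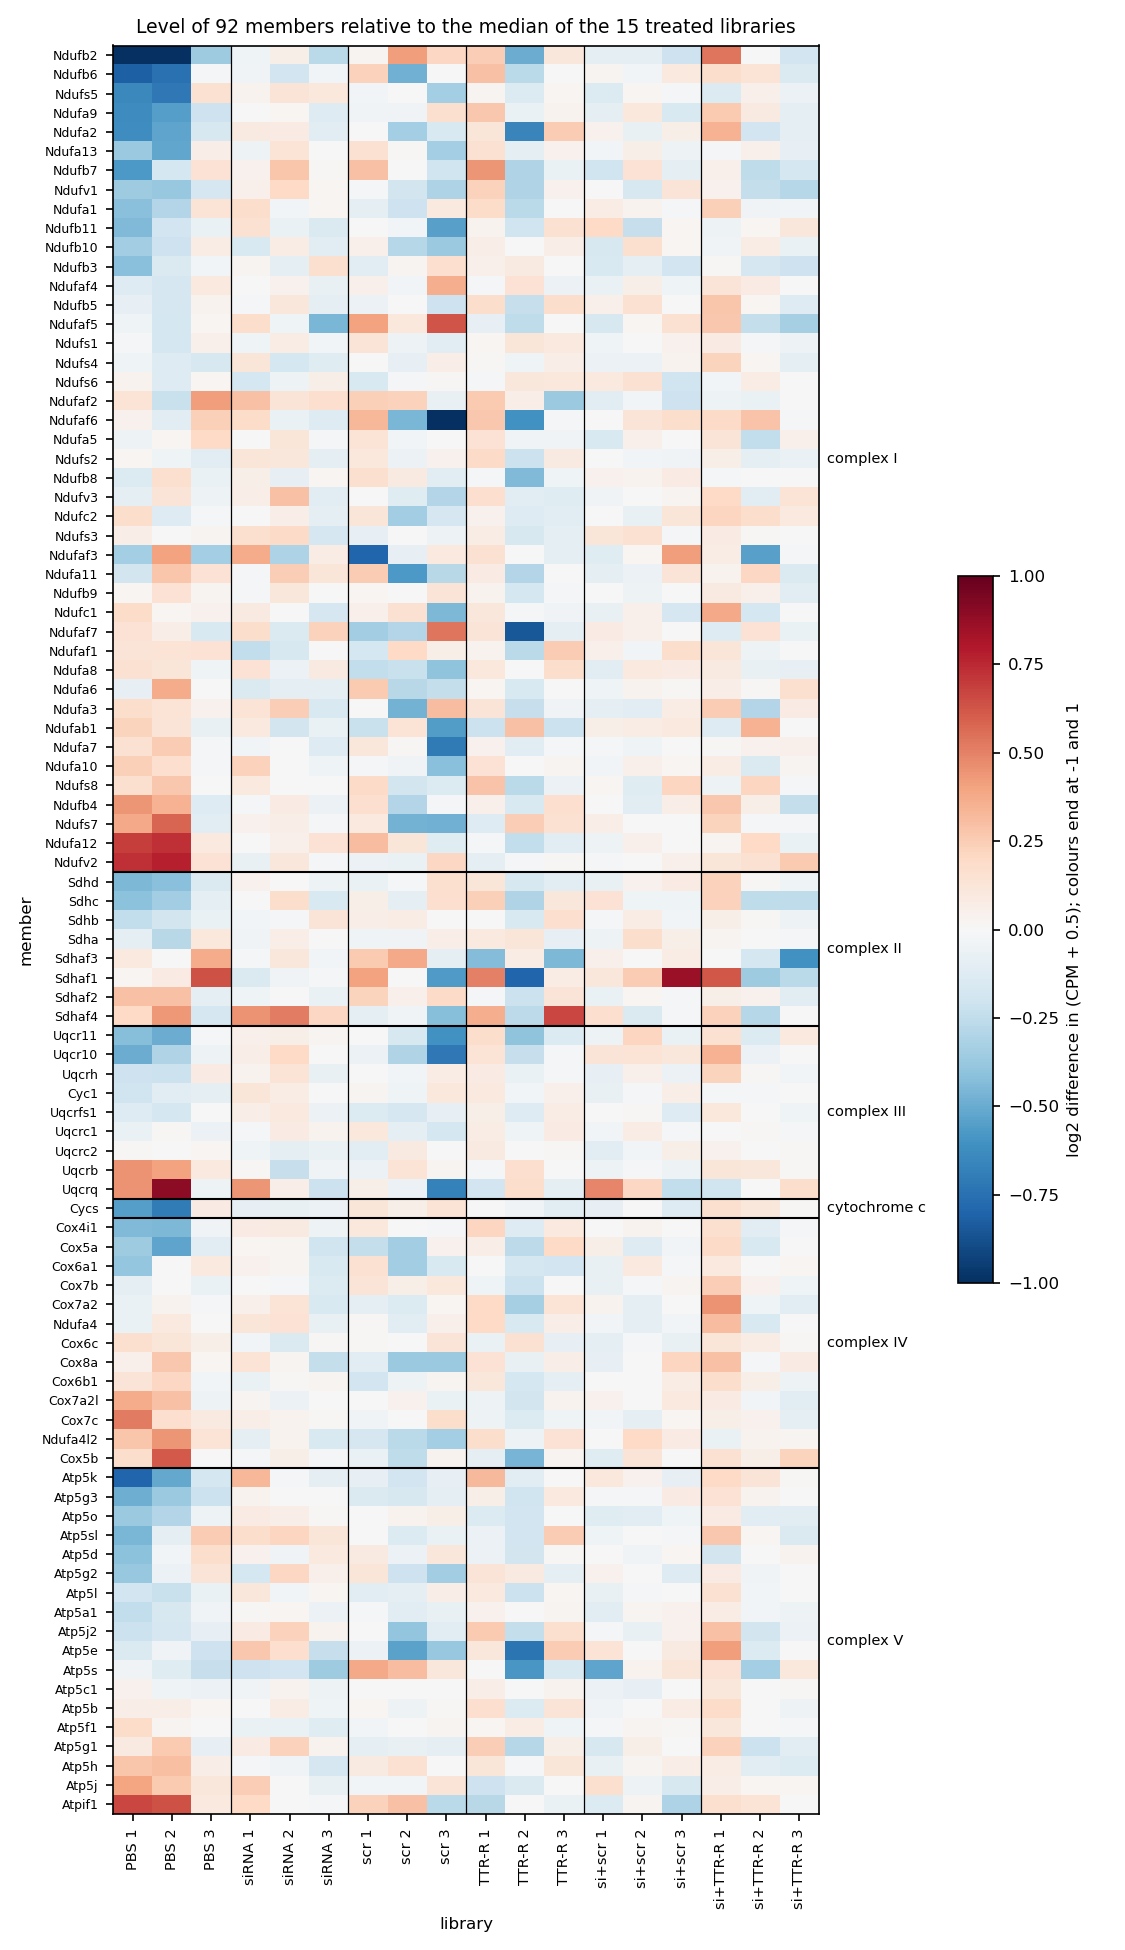
Log2 difference in CPM + 0.5 of 92 members (rows, grouped by complex and ordered by PBS 1 and 2) from the median of the 15 treated libraries, for 18 libraries (columns). The first 2 columns carry most of the strong colour, blue for members such as Ndufb2, Cycs and Atp5k and red for Ndufv2, Ndufa12 and Atpif1, and the PBS 3 column is pale like most treated columns.

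The 12 members above the other libraries in PBS 1 and 2 and the 21 below were drawn from the same complexes. Besides called genes, the 12 above were Ndufs7, Ndufa7, Ndufb4, Sdhaf2, Cox7a2l and Atp5j. The 21 below held all 4 core subunits of complex II, the cytochromes Cyc1 and Cycs, Cox4i1, Cox5a, Uqcrh and Atp5a1, and 6 complex I members beside those called (Ndufa1, Ndufa13, Ndufb6, Ndufs5, Ndufv1 and the assembly factor Ndufaf4). Median coding GC content was 49.9% in the former, 52.8% in the latter and 53.3% in the 59 others, and median longest transcripts were 977, 1232 and 1066 bases. A near-identical copy existed for 6 of 12, 8 of 21 and 23 of 59, and the NRF1 core was in 3 of 10, 8 of 17 and 15 of 48 promoter windows. These sets were chosen by their values, so the figures are descriptions.

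Near-identical copies, at 90% identity or more over at least 50% of the coding sequence, were found for 37 members, with 14 for Atp5l as the highest number. Of those 37, 7 were called in 1 comparison or more, against 5 of 55 tested members with 0 copies. Exons of another gene overlapped 21 members, and 5 of the 20 tested among them were called. Both groups of genes are uncertain where reads could be shared.

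Comparisons that leave out PBS addressed whether the REVERSIR sequence or the siRNA itself moved the chain. No member was called in any of the 5 by edgeR or by DESeq2. For siRNA with TTR REVERSIR against siRNA, DESeq2 gave some members no adjusted p, such as Cycs, Sdhb, Sdhc and Cox7c. Those members could not be called there by DESeq2. Members at an unadjusted p under 0.05 (edgeR) numbered 1 of 92 for siRNA with TTR REVERSIR against siRNA (0.00897% of all genes were called, which was Ttr), 1 for siRNA with TTR REVERSIR against siRNA with scrambled REVERSIR (0.00897%, again Ttr), 8 for TTR against scrambled REVERSIR (0.0179%), 4 for siRNA with scrambled REVERSIR against scrambled REVERSIR (0.0179%) and 3 for siRNA with TTR REVERSIR against TTR REVERSIR (0% called). As shares of the 92 these are 1.09%, 1.09%, 8.70%, 4.35% and 3.26%, where 5.98%, 2.17%, 7.33%, 6.22% and 4.44% of all genes had such a p, so that the members were near or below the background or, for TTR against scrambled REVERSIR, little above it.

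The smallest p-values in these comparisons are given as values. Ndufa4l2 had a log2 difference of 0.37 (95% interval 0.15 to 0.58, adjusted p = 0.438, edgeR) for TTR against scrambled REVERSIR, and Ndufa8, an accessory subunit of complex I, 0.39 (0.15 to 0.62, adjusted p = 0.438). For siRNA with scrambled REVERSIR against scrambled REVERSIR, Ndufa4l2 was at 0.35 (0.15 to 0.56) and Uqcr10, of complex III, at 0.44 (0.15 to 0.72). These comparisons share the 3 scrambled REVERSIR libraries, in which Ndufa4l2 was lowest of all groups. For siRNA with TTR REVERSIR against siRNA, Ndufv1, the core subunit that binds NADH, was at -0.23 (-0.45 to -0.01) and Sdhaf4 at -0.37 (-0.75 to 0.01). Against siRNA with scrambled REVERSIR, Cox6c was at 0.13 (0.00 to 0.26) and Sdhaf3 at -0.28 (-0.61 to 0.05). Against TTR REVERSIR, Cox7b was at 0.16 (0.01 to 0.32) and Cox5b, of the complex IV matrix side, at 0.27 (0.02 to 0.53). The adjusted p of the last 6 was 0.807 or more. Whether the effect of siRNA depended on the REVERSIR was tested as an interaction, which includes the PBS libraries. It called 0 members (edgeR, no other tool run) for the scrambled REVERSIR (18 at an unadjusted p under 0.05, 0.0179% of all genes called) and 0 for the TTR REVERSIR (23, 0.00897%). Of all genes, 11.4% and 13.6% had an unadjusted p under 0.05 in these 2 tests, against 19.6% and 25% of members.

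Other genes of the pathway were taken from lists. Of the 13 mitochondrially encoded subunits, 7 passed the filter, and with siRNA 4 were called by edgeR, all lower: mt-Co1 (log2 -0.45 ± 0.09), mt-Nd1 (-0.41 ± 0.11), mt-Nd2 (-0.54 ± 0.12) and mt-Nd4 (-0.52 ± 0.13). Over the 13, DESeq2 called 4 with siRNA, 1 with scrambled REVERSIR and 3 with TTR REVERSIR. It called 1 with siRNA and scrambled REVERSIR and 0 with siRNA and TTR REVERSIR. The median of the 7 was -0.45 with siRNA, -0.21 with scrambled REVERSIR, -0.42 with TTR REVERSIR, where mt-Co1 fell by 0.42, -0.35 with siRNA and scrambled REVERSIR and -0.17 with siRNA and TTR REVERSIR. These transcripts come from the same genome as the ribosomal RNA that was high in PBS 1 and 2, and the part of that RNA in the difference was not tested. Of 25 assembly factors tested that have other names, Ttc19, needed for complex III, was called by edgeR, with siRNA only (-0.50 ± 0.12). Over the 26 in the count files, DESeq2 called 1 with siRNA and 1 with siRNA and each REVERSIR, and 0 with either REVERSIR alone. Of 6 ADP/ATP, phosphate and porin carriers, the phosphate carrier Slc25a3 was called by edgeR, also with siRNA only (-0.41 ± 0.10). DESeq2 called 2 of the 6 with siRNA, 2 with scrambled REVERSIR, 2 with siRNA and each REVERSIR, and 0 with TTR REVERSIR. None of 16 regulators of respiratory genes and mitochondrial DNA and none of 14 citric acid cycle enzymes was called in any of the 5 comparisons with PBS by edgeR or DESeq2 (0 or 1 and 1 to 3 at an unadjusted p under 0.05, edgeR), and their median log2 differences ran from -0.08 to 0.03.

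The authors' deposited tables, made with DESeq2, called 13 members against PBS after siRNA and 6, 9, 8 and 8 after the scrambled REVERSIR, the TTR REVERSIR and the siRNA with each of them, at the authors' adjusted p under 0.05. Of these, 10, 2, 6, 3 and 5 were also called here, out of 10, 2, 6, 5 and 6. Only 47 to 81 members had an adjusted p there. Of all genes with an adjusted p in the authors' deposited tables, 8.37% were called after siRNA and 3.88%, 2.65%, 6.89% and 3.68% after the others in the same order. The calls made here and lacking in the authors' deposited tables, Ndufa12 and Atpif1 with siRNA and scrambled REVERSIR and Ndufb2 with siRNA and TTR REVERSIR, had no adjusted p there. Cox4i1 was called in 4 of the authors' deposited tables, by DESeq2 here in all 5 comparisons with PBS, and by edgeR in none.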

How the data were processed

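Read counts per gene were deposited by the authors as whole numbers, 1 file a library, for 37991 genes. The submitters' processing notes name STAR, the build NCBIM37 and DESeq2, without versions. Counting tool and strand: not given in the sources used here. Also deposited by the authors were tables with log2 fold changes, p-values with their adjusted values, Wald scores and a mean signal scaled by size factors; symbols came from these tables, and only their calls are quoted. Libraries were grouped by title, and no per-sample column was unused (0). The file of siRNA with scrambled REVERSIR replicate 2 carries another number in its name, and its title was followed.

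Genes were kept by filterByExpr (11153), and all 18 libraries were fitted together with edgeR 4.0.16 (R 4.3.3), TMM scaling and group as the only term, with 12 residual degrees of freedom. Benjamini-Hochberg adjustment covered every gene tested, and 0.05 was the threshold. The code was tested on simulated data. Standard errors came from the quasi-likelihood F statistic. The distance from the median of the treated libraries used log2(CPM + 0.5). Copies were sought with BLAST+ 2.17.0 against NCBIM37. Depth limits the members with few counts most.

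Named were Ttr, every member called by edgeR, the 2 smallest p-values where no member was called, the highest and lowest length-scaled level in each complex, alternative forms of a subunit, members under the filter, and genes of the lists called by edgeR. Cycs, Sdha, Sdhb, Sdhc, Cox4i1, Cox7c, Atp5b, Atp5c1, Uqcrc2, the pseudogenes at copies and the members apart in PBS 1 and 2 were added after their values were seen. The members and lists were chosen with earlier results of these data known. Alternatives were RLE scaling, library totals alone, no filter, DESeq2 1.42.0, a replicate block, the compared groups only, leaving out libraries, another gene length and a stricter motif.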

Additional observations from a re-analysis of the deposited data

How the results depend on the processing

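Counts of called members against PBS are given in the order siRNA, scrambled REVERSIR, TTR REVERSIR, siRNA with scrambled REVERSIR, siRNA with TTR REVERSIR, and then the test for any difference, against 10, 2, 6, 5, 6 and 2. They were the same with RLE scaling, 45, 15, 38, 39, 52 and 7 with library totals alone, 21, 13, 21, 20, 18 and 22 with no filter, and 12, 6, 6, 7, 8 and 10 with DESeq2. With library totals alone the median log2 difference of all genes from PBS was 0.29 to 0.33, so that shift was not particular to the members. Shares of all genes called are not given here for any alternative, so the counts describe the members only. In fits of the compared groups only, edgeR called 0 in the 5 comparisons (23 to 31 at an unadjusted p under 0.05), and without PBS replicates 1 and 2 it called 0 in these and 0 in the test for any difference (1 to 4 in the 5 comparisons). Leaving out each library in turn gave 0 to 30, 0 to 21, 0 to 23, 0 to 29, 0 to 29 and 0 to 19. The highest counts came without PBS 3, those without PBS 1 or PBS 2 were 0, and without a treated library the counts were 0 to 3 except 14 for TTR REVERSIR without its replicate 2. In the comparisons without PBS the count was 0 under every alternative, except 2 with no filter for siRNA with scrambled REVERSIR against scrambled REVERSIR. The replicate block gave 7, 2, 5, 5, 5 and 0. Replicate numbers did not pair the libraries: correlations of deviations in 45 same-numbered pairs ran from -0.148 to 0.287 (median -0.013), and 6 of 18 libraries correlated best with their own number. Of the 29 calls of a member in a comparison, 24 kept their side of the threshold under the replicate block, 21 with DESeq2 (8 had no adjusted p) and 14 with library totals alone. With library totals alone the log2 difference of Atp5h for siRNA was 0.035. The cause of these differences was not tested. Depth limits the low members most, as 3 had too few counts to test.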
